A study of Mus musculus with 10 samples.

Results

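The TRIM and RNF genes described here are 2 large symbol families that hold many mouse RING-type ubiquitin ligases. Membership went by symbol, and whether each member has a RING domain or ligase activity was not checked. Members were the genes of the count table whose annotated symbol is Trim or Rnf followed by a number and at most 1 letter, with Trim30a, Rnf2, Rnf8 and Rnf168 left out. The GENCODE M21 annotation holds 150 protein-coding genes with such symbols. Of these, 4 were left out by name, 37 had no row in the count table and were not analysed here, and 109 were members, 39 TRIM and 70 RNF genes of the 14276 genes in the table. The table held no gene of very low expression: every gene reached at least 0.582 CPM, a gene's counts scaled to the total of its library, in at least 5 libraries.

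Cerebral cortex RNA was sequenced from 3-month-old C57BL/6 mice, in 5 control and 5 BrapcKO libraries, to ask how cortical gene expression differs when Brap is deleted conditionally. Brap encodes a RING ubiquitin ligase, also called IMP, that is known to restrain signalling from Ras to MAP kinases. Control libraries 08, 22 and 23 were flox/wt Cre- and 09 and 24 were flox/flox Cre-, while BrapcKO libraries 04, 07 and 21 were flox/ko Cre+ and 05 and 06 were flox/flox Cre+. Here flox is a Brap allele that Cre recombinase can delete, ko an allele already deleted and wt an unaltered allele, so every control library still carried at least 1 flox allele and every BrapcKO library also carried Cre. The labels name neither the promoter that drives Cre, and thus the cells that lose Brap, nor the deleted exons, and carrying Cre cannot be told apart from losing Brap. Nor do they state that libraries are different animals. The p-values therefore measure how these libraries vary, which may be in part technical.

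Ubiquitin is passed from an activating enzyme (E1) to a conjugating enzyme (E2) and then to a target protein by a ligase (E3), which chooses the target. In most but not all TRIM proteins a RING domain is followed by B-box and coiled-coil domains and then by a variable end that binds targets. Many TRIM genes are known as antiviral effectors, while others act in axons, in chromatin or in muscle. RNF is a naming class for RING finger proteins of diverse build, among them RING-between-RING ligases, which carry ubiquitin on their own cysteine before passing it on, and ligases held in membranes of the endoplasmic reticulum or endosome.

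The libraries held 17188901 to 28991874 counts, of which the 109 members took 0.76 to 0.801%. Titles also hold B1 or B2, a code left unexplained in the labels. Of the control libraries 2 were B1 (08 and 09) and 3 were B2, and of the BrapcKO libraries 4 were B1 and 1 was B2 (21), so the code entered the comparison as a term. Reads of 4 Y-linked genes were high in control 23 and in BrapcKO 05, 06, 07 and 21 and near 0 in the others, which was uneven between the groups. Marker genes of cell types were also compared between the groups, at an adjusted p under 0.05 by edgeR. By the same test 3.12% of all genes rose and 4.95% fell. Of 7 striatal neuron markers 4 rose, and their summed level was 244 to 612 CPM in control and 485 to 1110 CPM in BrapcKO libraries. Of 6 inhibitory neuron markers 4 rose (801 to 918 CPM summed in control, 1020 to 1670 in BrapcKO). Of 4 excitatory cortical neuron markers 1 fell, while their summed level was 1050 to 1370 CPM in control and 1100 to 1540 in BrapcKO libraries. Of 5 general neuron markers 1 fell (7330 to 8480 CPM summed in control, 7010 to 7730 in BrapcKO), and of 6 astrocyte markers 1 rose (4500 to 6330 and 4140 to 8010 CPM). Of 8 microglia markers 1 rose, with summed levels of 335 to 362 CPM in control and 445 to 1240 in BrapcKO libraries, the highest in BrapcKO 05. Of 5 oligodendrocyte markers 0 were called, with summed levels of 2940 to 4120 CPM in control and 2220 to 3010 in BrapcKO libraries. Choroid plexus markers were called in 0 of 3 cases but summed to 2280 CPM in control 24 against 34.8 to 656 in the other libraries. No marker gene of these lists was at 0 in any library. The part of these shifts in the results below was not tested. In bulk RNA, fewer cells of a type and less RNA per cell cannot be told apart.

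The targeted gene was not lower in the knockout libraries, and in 1 of the genotype contrasts it was called higher. Brap, at chr5:121660563-121687256 on the plus strand in GRCm38, stood at 88.1, 94.3, 76.7, 84.2 and 98.6 CPM in control 08, 09, 22, 23 and 24 and at 110, 89, 101, 110 and 109 CPM in BrapcKO 04, 05, 06, 07 and 21. The groups overlapped, with means of 88.4 ± 8.58 and 104 ± 9.15 CPM (SD, n = 5 each). The log2 difference was 0.23 (SE 0.10) with an adjusted p of 0.182 in edgeR, 0.0341 before adjustment over all genes. A two-sided exact permutation test of this gene alone, over the libraries without regard to title code, gave p = 0.0317. The smallest p it can give is 0.00794. In flox/ko Cre+ set against flox/wt Cre-, with 3 libraries each, Brap was higher by 0.39 (SE 0.09, adjusted p = 0.0402 by edgeR), with no overlap of the libraries. Within flox/flox the Cre+ minus Cre- difference was -0.04 (SE 0.12, 0.921), and the difference between these contrasts was 0.43 (SE 0.14, 0.788). The table has 1 count per gene, so reads outside the deleted exons are included and the labels could not be checked in this way.

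Most TRIM and RNF genes differed little between BrapcKO and control cortex. Of the 109 members 6 passed the test: Trim2 and Rnf181 rose, each 1.27-fold, and Rnf144a, Rnf144b, Trim66 and Rnf112 fell, to between 0.653 and 0.77 of the control level. A call here is an adjusted p under 0.05 in edgeR's quasi-likelihood test with the title code as a term, adjusted by Benjamini and Hochberg over all 14276 genes. The 6 calls are 5.5% of the members, against 8.07% of all genes called in either direction. By direction, 1.83% of members rose and 3.67% fell, against 3.12% and 4.95% of all genes, and the members' share was thus near the background. The median log2 difference of the members was -0.01, with 51 above and 58 below 0, and that of all genes was 0.01. For the 39 TRIM genes the median was 0.02 and for the 70 RNF genes -0.02. Among the 103 members not called, 73 had a 95% interval that lay within 0.5 of no change on the log2 scale, which is 1.41-fold, and 95 lay within 1.

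**Figure D1:**
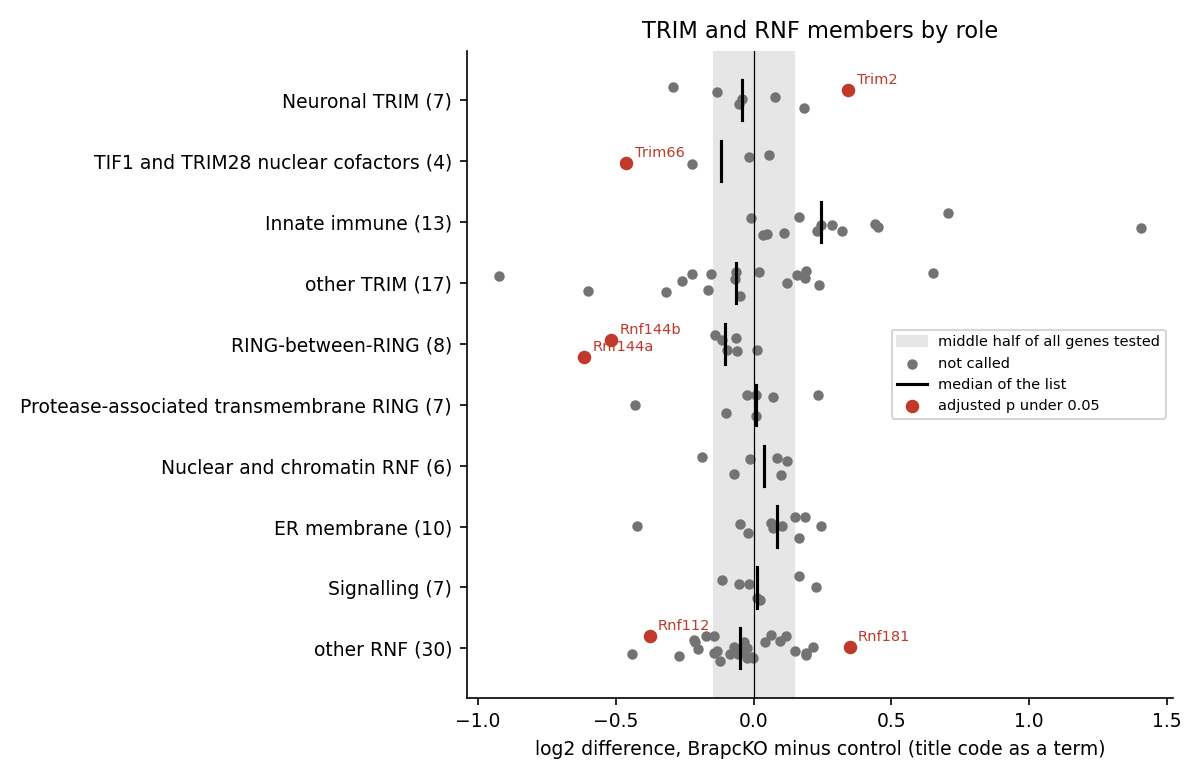
The log2 difference between BrapcKO and control libraries (horizontal axis) of each member, 1 point per gene, by role; red points passed the test, the black bar is the median of the role and the grey band is the interquartile range of all genes tested. Most points lie in or near the band, and the medians of the roles run from -0.12 for the TIF1 and TRIM28 cofactors to 0.24 for the innate immune genes.

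The 6 calls rested on how the design was written. With the group as the only term 0 of 109 members were called, against 4.32% of all genes, 1.83% higher and 2.49% lower (17 members, 15.6%, at an unadjusted p under 0.05, against 18.5% of all genes). With the Y-linked reads as a further term beside the code, 1 member, Rnf144a, was called, against 2.26% of all genes, 0.644% higher and 1.61% lower. Leaving out 1 library at a time gave between 2 members called (without control 09, or without BrapcKO 21) and 9 (without control 24), and 3 without control 08. Over the same settings the number of all genes called ran from 406 (without BrapcKO 21) to 1454 (without control 24), against 1152 with every library.

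The 2 largest called changes belonged to a pair of closely related RING-between-RING ligases. Rnf144a lies at chr12:26300964-26415254 on the minus strand. Rnf144a is known in human cells to target the DNA repair kinase DNA-PKcs after DNA damage. It stood at 53.3, 44.5, 38.5, 48.1 and 40.5 CPM in control 08, 09, 22, 23 and 24 and at 30.5, 43.2, 31.6, 33.2 and 23.8 CPM in BrapcKO 04, 05, 06, 07 and 21. Every BrapcKO library but 05 lay below all controls. The fitted log2 difference was -0.61 (SE 0.13, adjusted p = 0.012 by edgeR). In the same test it was -0.80 with the Y-linked term (adjusted p = 0.0216), -0.47 with group alone (0.107) and -0.50 within the B1 libraries (0.109). The call was lost without control 08 (adjusted p = 0.0682) and without BrapcKO 21 (0.0989).

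Rnf144b lies at chr13:47122656-47247991 on the plus strand. Rnf144b is induced by p53 in human cells and takes part in the turnover of the cell death protein Bax. Its levels were 37.5, 28.2, 28.5, 28 and 22.8 CPM in the control libraries, in the order above, and 23.3, 21.9, 21.9, 20.6 and 20.1 CPM in the BrapcKO libraries. The BrapcKO libraries lay close together and below all controls but 24. The log2 difference was -0.52 (SE 0.11, adjusted p = 0.0123 by edgeR) and -0.58 within B1 alone (0.0466). The call was lost without control 08, the highest library (adjusted p = 0.0915), with group alone (0.0718) and with the Y-linked term (0.109).

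None of the other RING-between-RING members was called. Of the 8 measured, 2 fell and 6 were not called, 7 had a difference below 0, and the median was -0.10. Rnf14, which acts on stalled ribosomes in human cells, had the highest level per kilobase of the list and stood at 366 ± 12.5 CPM in control and 367 ± 42.8 in BrapcKO libraries (SD, n = 5 each). Rnf31, the catalytic subunit of the complex that makes linear ubiquitin chains, differed by -0.11 (95% interval -0.40 to 0.17). Rnf216, known to target the synaptic protein Arc, differed by -0.10 (interval -0.27 to 0.07), Rnf19a by -0.07, Rnf19b by -0.14 and Rnf217 by -0.06.

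The promoters of the called pair are shown because their fall was the largest among the calls. The sequences are from RefSeq on build GRCm38.p6 and run 5′ to 3′ along the gene from 250 bases before its start to 50 after it, without capitals because neither holds the interferon motif searched further on. The Rnf144a window was 67% G or C with 25 CG pairs and the Rnf144b window 62.7% with 27, and the table lists 2 starts for Rnf144b, of which 1 is printed.
Rnf144a, chr12:26415213-26415512, minus strand: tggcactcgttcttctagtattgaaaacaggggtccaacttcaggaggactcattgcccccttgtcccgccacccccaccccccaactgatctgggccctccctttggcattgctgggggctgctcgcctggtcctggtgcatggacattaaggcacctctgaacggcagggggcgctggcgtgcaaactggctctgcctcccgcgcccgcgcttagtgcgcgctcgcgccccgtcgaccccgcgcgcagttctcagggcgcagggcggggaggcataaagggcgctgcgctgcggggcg
Rnf144b, chr13:47122470-47122769, plus strand: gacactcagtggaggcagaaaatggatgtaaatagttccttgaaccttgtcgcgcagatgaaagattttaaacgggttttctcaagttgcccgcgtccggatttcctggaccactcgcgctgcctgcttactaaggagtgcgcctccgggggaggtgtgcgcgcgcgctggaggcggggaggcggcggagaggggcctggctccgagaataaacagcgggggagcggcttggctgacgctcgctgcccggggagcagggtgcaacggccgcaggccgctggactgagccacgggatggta

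Among the TRIM genes with known roles in neurons, Trim2 rose. Trim2 lies at chr3:84160439-84306877 on the minus strand. Trim2 is a ligase of neurofilament light chain in mouse, and its loss causes axonal degeneration. It was at 638, 547, 543, 562 and 552 CPM in control and at 706, 590, 751, 745 and 799 CPM in BrapcKO libraries. The groups overlapped in 1 pair, BrapcKO 05 lying below control 08. The log2 difference was 0.34 (SE 0.09, adjusted p = 0.041 by edgeR), and 0.34 with group alone (0.0634) or 0.35 with the Y-linked term (0.228). It was no longer called without control 09 (0.149), 22 (0.0737) or 23 (0.0756), or without BrapcKO 04 (0.0632), 06 (0.0719), 07 (0.0788) or 21, where the difference was 0.23 (0.344).

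The other 6 neuronal TRIM genes were not called, and the list of 7 had a median of -0.04. Trim9, a brain ligase known to shape netrin-dependent axon branching, differed by -0.29 (SE 0.10, adjusted p = 0.106), with 318 ± 27.6 CPM in control and 267 ± 34.3 in BrapcKO libraries. Its close relative Trim67 stood at 3.2 ± 0.595 and 4.18 ± 0.719 CPM and differed by 0.18. Trim32 differed by -0.13, Trim36 by -0.05 and Trim3, which is found at synapses, by 0.08. Trim46, which bundles microtubules at the start of the axon, differed by -0.04 (95% interval -0.26 to 0.17).

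Of the 4 nuclear cofactors of the TIF1 family and TRIM28, 1 fell. Trim66 lies at chr7:109449006-109508134 on the minus strand. Trim66, a chromatin reader and transcriptional repressor, was at 57.7, 57.6, 49.8, 55.5 and 42.7 CPM in control and at 50.5, 46, 42.4, 40.7 and 31.5 CPM in BrapcKO libraries. Both sets ran low in B2, and all BrapcKO libraries but 04 lay below all controls but 24. The log2 difference was -0.46 (SE 0.10, adjusted p = 0.0173 by edgeR). The call was lost without control 08 (0.0529), control 09 (0.0534) or BrapcKO 21 (0.144), with group alone (0.215) and with the Y-linked term (0.116). Trim24 differed by -0.22 (adjusted p = 0.107), Trim33, a partner of SMAD4, by -0.02, and Trim28, the partner of KRAB zinc finger repressors, by 0.06. The levels of Trim28 were 119 ± 10.8 CPM in control and 124 ± 8.87 in BrapcKO libraries.

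Among the 30 RNF genes outside the role lists, 1 rose and 1 fell. Rnf181 lies at chr6:72359714-72366956 on the minus strand. Rnf181 encodes a small RING ligase known from human platelets. It was at 37.7, 32.3, 44.3, 43.1 and 43.3 CPM in control and at 44, 41.8, 45.8, 43.7 and 57.1 CPM in BrapcKO libraries. Both B1 controls were low and BrapcKO 21 was high, while the other libraries ran together between 41.8 and 45.8 CPM. The log2 difference was 0.35 (SE 0.08, adjusted p = 0.0138 by edgeR), and the call was lost without control 09 (0.0874) or BrapcKO 21 (0.117), with group alone, where the difference was 0.21 (0.367), and with the Y-linked term (0.117). Rnf112 lies at chr11:61448442-61454131 on the minus strand. Rnf112, also called neurolastin, is a brain protein that joins a RING finger to a dynamin-like GTPase. It was at 200, 238, 201, 209 and 227 CPM in control and at 191, 193, 179, 200 and 131 CPM in BrapcKO libraries. All controls lay above all BrapcKO libraries, by less than 1 CPM at the nearest pair, and BrapcKO 21 stood well below the rest. The log2 difference was -0.38 (SE 0.10, adjusted p = 0.0447 by edgeR). It was not called without control 09 (0.152), 22 (0.0727) or 23 (0.0819), without BrapcKO 04 (0.0619), 06 (0.0753), 07 (0.0532) or 21 (0.325), with group alone (0.226) or with the Y-linked term (0.242). Its size also rested on 1 library, since the difference was -0.21 without BrapcKO 21 and -0.20 within B1.

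**Figure D2:**
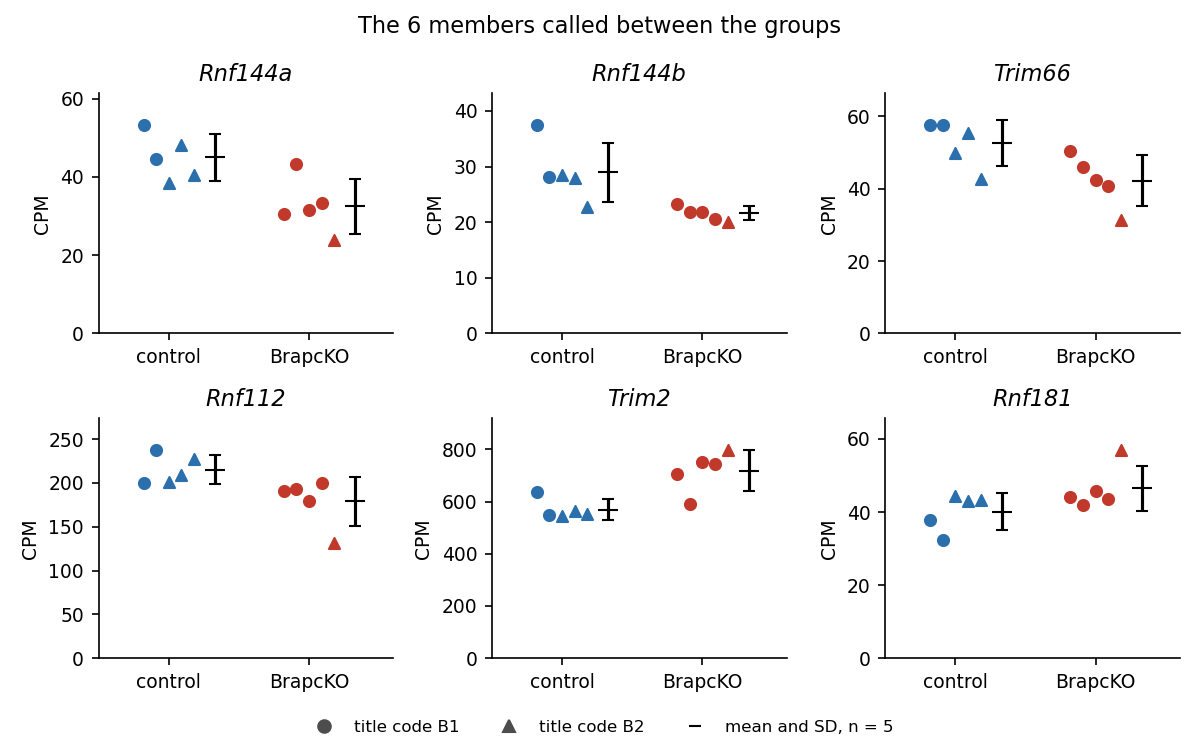
CPM (vertical axis, TMM-scaled) of the 6 called members in each of the 10 libraries, control blue and BrapcKO red, with circles for B1 and triangles for B2 libraries. Rnf112 is the only one of the 6 whose groups do not overlap, and BrapcKO 21, the single B2 BrapcKO library, gives the lowest value of each gene that fell and the highest of each that rose.

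Members in which all libraries of 1 group lay above the other were few. Trim47 was higher in every BrapcKO library, 0.917% of members against 3.12% of all genes. Its levels were 2.39, 2.52, 2.18, 1.92 and 2.24 CPM in control and 4.72, 3.03, 4.49, 2.59 and 3.54 CPM in BrapcKO libraries. The log2 difference of 0.65 (SE 0.21) missed the threshold, with an adjusted p of 0.0866 by edgeR. Trim47 shares 8.23% of its exon bases with its neighbour Trim65 on the same strand, and Trim65 differed by -0.01. Rnf112 and Rnf219 were lower in every BrapcKO library, 1.83% of members against 3.71% of all genes. Rnf219, named after its values were seen, stood at 21.1 ± 1.29 CPM in control and 16.8 ± 2.08 in BrapcKO libraries, a log2 difference of -0.27 (adjusted p = 0.129).

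Members that narrowly missed or that had large but uncertain differences included Trim37. Trim37 limits centriole assembly, and its loss in people causes mulibrey nanism. It stood at 620 ± 67.8 CPM in control and 538 ± 27.5 in BrapcKO libraries, a log2 difference of -0.26 (SE 0.08, adjusted p = 0.0641 by edgeR, 0.0207 by DESeq2). Rnf43, which removes Frizzled receptors for Wnt from the cell surface, differed by -0.43 (adjusted p = 0.116). Rnf207 differed by -0.44 (0.29), Trim71, an embryonic target of let-7, by -0.60 (0.325) and Trim7 by -0.93 (0.129). Levels of these 3 were low, with group means of 0.743 to 2.8 CPM, so their ratios are less certain.

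No innate immune member passed the test, though most differences were above 0. Of 18 genes listed for antiviral or inflammatory sensing 13 were measured, and none was called by edgeR, DESeq2 or limma-voom. Nor was any at an unadjusted p under 0.05 by edgeR, against 22.2% of all genes, of which 8.07% were called. Of the 13 differences 12 were above 0, as were 7374 of all 14276. The median was 0.24 on the log2 scale, against 0.01 for all genes. Without BrapcKO 05 the median was 0.20, and with the Y-linked term it was 0.07. Summed over the list, the level was 121.3 to 131.3 CPM in control and 128.5 to 172.9 CPM in BrapcKO libraries, so the ranges overlapped. BrapcKO 05 was the highest library for 5 of the 13 genes and BrapcKO 07 for 4.

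Rnf213, a giant ligase with ATPase modules that is linked to moyamoya disease of brain arteries, was highest in BrapcKO 05. It was at 32.3, 28.9, 21.1, 24.6 and 17.9 CPM in control and at 34.5, 58, 31.6, 29.2 and 22.7 CPM in BrapcKO libraries. BrapcKO 05 stood far above the other libraries, which overlapped. Trim25, needed for signalling by the RNA sensor RIG-I, was at 4.42 ± 0.162 CPM in control and 5.94 ± 1.38 in BrapcKO libraries and differed by 0.29 (SE 0.17, adjusted p = 0.371). Trim21, a cytosolic receptor for antibody, was at 2.33 ± 0.252 and 3.13 ± 0.974 CPM and differed by 0.32 (0.468). Trim56 differed by 0.11, Rnf135, another RIG-I ligase, by 0.23, Rnf125 by 0.71 (0.237) and Rnf114 by 0.05. Trim26 differed by 0.04 and Trim65 by -0.01. Markers of the interferon response, 7 of 8 measured and none called, summed to 17.9 to 23.7 CPM in control and 23.3 to 55.8 CPM in BrapcKO libraries. Both they and the microglia markers were highest in BrapcKO 05, and their part in these differences was not tested.

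**Figure D3:**
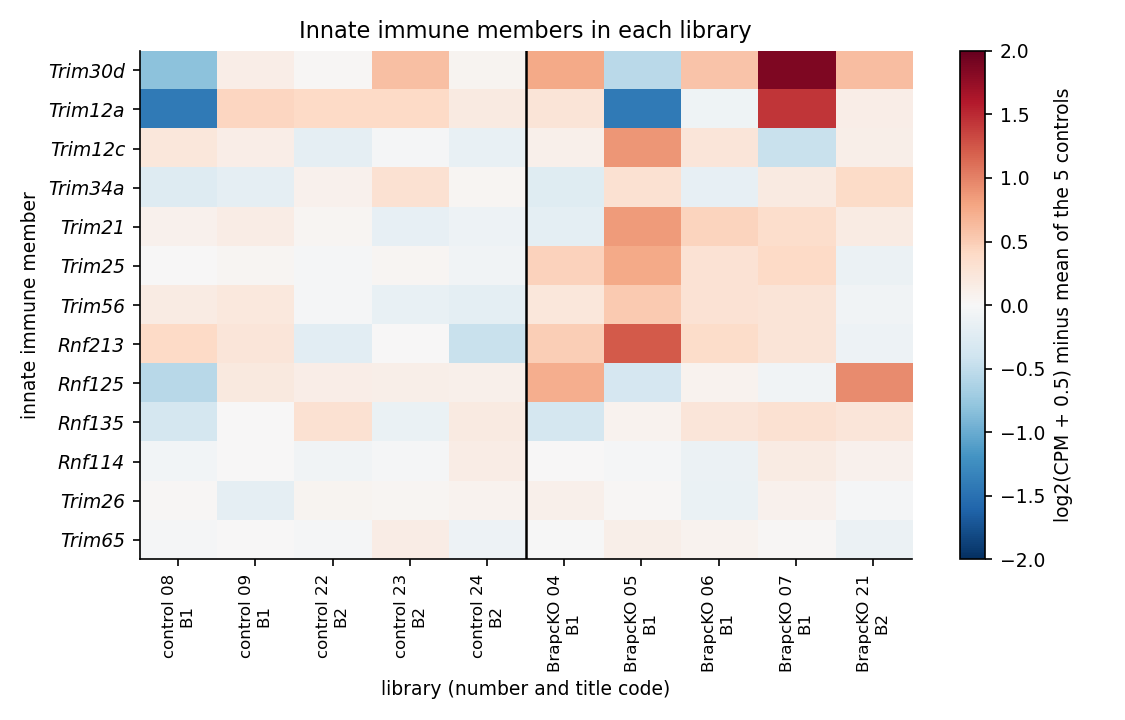
Heat map of the 13 innate immune members (rows) in the 10 libraries (columns); colour is log2(CPM + 0.5) minus the mean of the 5 control libraries, red above it and blue below. BrapcKO 05 is red for Rnf213, Trim25, Trim21 and Trim12c and blue for Trim12a and Trim30d, which are red in BrapcKO 07.

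A cluster of 4 measured members on chromosome 7, chr7:104244457-104507849 in GRCm38, holds Trim34a, Trim12a, Trim12c and Trim30d, rodent relatives of the retrovirus restriction factor Trim5. Trim30d had counts of 1 in control 08, 3 in BrapcKO 05, 62 in BrapcKO 07 and 11 to 28 in the other libraries. Trim12a had counts of 0 in control 08 and in BrapcKO 05, 63 in BrapcKO 07 and 16 to 36 elsewhere, and it is singled out after its values were seen. The same 2 libraries were thus low and the same library high for both genes. For the neighbour Trim12c the order was reversed at the extremes, with 112 counts in BrapcKO 05, the highest CPM, and 45 in BrapcKO 07, the lowest CPM. Fitted log2 differences were 1.41 (SE 0.73, adjusted p = 0.288) for Trim30d, 0.45 (0.93, 0.828) for Trim12a, 0.17 (0.25, 0.759) for Trim12c and 0.44 (0.31, 0.445) for Trim34a. Reads may be divided among related copies of these genes, so their counts are uncertain. Whether this happened, and its part in the pattern, was not tested.

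Promoters were searched for the letters of the interferon-stimulated response element, the core bound by interferon-activated factors. The motif, TTTC, any 2 bases and TTTC again on either strand, was chosen with the values known, and the shares were not tested. It was found in 6 of the 11 innate members with a RefSeq promoter entry (54.5%), in 5 of 71 other members (7.04%) and in 3.99% of all 27025 genes with an entry. A gene counted if any of its promoter windows, all of the same length, held a match. The 6 were Trim12a, Trim12c, Trim21, Trim26, Trim30d and Trim34a. All but Trim21 and Trim26 belong to the chromosome 7 cluster of 4 related genes, so the matches within it are not independent of one another. Entries were found for 82 of the 109 members. The STAT site TTCNNNGAA was in 0 of 11 innate and 8 of all 82 members, against 9.55% of all genes with an entry. The cyclic AMP site TGACGTCA was in 2 of 82 against 2.03%, and the AP-1 site TGANTCA in 7 of 82 against 8.97%. A match describes letters and not a bound site. The 4 windows below show where the motif lies in Trim30d, Trim12c and Trim34a of the chromosome 7 cluster and in Trim21, with matches in capitals. The window of Trim12a, which also holds the motif, is not printed. In Trim21 the 2 matches overlap and read as the reverse complement.
Trim30d, chr7:104507800-104508099, minus strand: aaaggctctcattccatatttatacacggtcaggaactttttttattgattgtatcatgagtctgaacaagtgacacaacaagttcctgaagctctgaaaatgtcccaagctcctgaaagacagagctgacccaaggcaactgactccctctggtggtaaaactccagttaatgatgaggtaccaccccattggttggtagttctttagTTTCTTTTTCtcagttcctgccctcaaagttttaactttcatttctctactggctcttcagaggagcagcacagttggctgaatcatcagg
Trim12c, chr7:104353300-104353599, minus strand: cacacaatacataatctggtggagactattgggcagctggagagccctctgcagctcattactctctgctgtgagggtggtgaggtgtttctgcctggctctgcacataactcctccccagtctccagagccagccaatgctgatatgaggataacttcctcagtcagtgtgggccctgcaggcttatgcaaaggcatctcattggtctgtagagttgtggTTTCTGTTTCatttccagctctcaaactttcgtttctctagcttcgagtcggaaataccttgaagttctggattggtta
Trim34a, chr7:104244207-104244506, plus strand: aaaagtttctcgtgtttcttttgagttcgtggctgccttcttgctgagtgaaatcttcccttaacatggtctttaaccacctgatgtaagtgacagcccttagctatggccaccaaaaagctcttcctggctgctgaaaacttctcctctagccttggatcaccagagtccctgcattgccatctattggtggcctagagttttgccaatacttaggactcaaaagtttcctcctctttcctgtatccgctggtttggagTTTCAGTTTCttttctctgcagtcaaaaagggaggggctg
Trim21, chr7:102565433-102565732, minus strand: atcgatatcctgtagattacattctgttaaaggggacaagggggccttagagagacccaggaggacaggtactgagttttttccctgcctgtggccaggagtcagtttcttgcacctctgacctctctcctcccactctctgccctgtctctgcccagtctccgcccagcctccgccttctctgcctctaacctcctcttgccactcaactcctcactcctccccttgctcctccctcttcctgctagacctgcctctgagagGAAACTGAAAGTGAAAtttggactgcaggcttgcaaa
The match begins 41 bases before the start in Trim30d, 29 before it in Trim12c and 10 after it in Trim34a, and at 13 and 19 bases after it in Trim21. None of these 4 genes was called. Of the 5 called members with a promoter entry, Trim2 holds the interferon motif and the AP-1 site, Rnf144b holds the STAT site, and 0 hold the cyclic AMP site.

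The remaining role lists gave no calls. The 7 measured genes of the protease-associated transmembrane RING group, which sit in endosome and lysosome membranes, had a median of 0.01, with Rnf149 at 0.23, Rnf128 at 0.07, Rnf13 at -0.10 and Rnf43 as above. The 6 nuclear genes had a median of 0.04. Among them Rnf20 and Rnf40, which together place ubiquitin on histone H2B, differed by 0.12 and -0.07, Rnf138 by 0.10 and Rnf169, which acts at DNA breaks, by -0.19. The 10 measured genes of the endoplasmic reticulum had a median of 0.09. Rnf185, which serves the removal of misfolded proteins, had the least spread between libraries of all well-expressed members, 29.1 ± 0.549 CPM in control and 28.8 ± 0.74 in BrapcKO libraries. The 7 signalling genes had a median of 0.01, with Rnf11 at 0.23 (adjusted p = 0.284), Rnf34 at 0.16, Rnf25 at -0.05 and Rnf220 at -0.12. The 17 other TRIM genes had a median of -0.06 and the 30 other RNF genes of -0.05.

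Other genes of the ubiquitin pathway were compared with the same background, 8.07% of all genes called and 22.2% at an unadjusted p under 0.05. Of 36 listed E1 and E2 enzymes 35 were measured and 0 were called by edgeR (7 at an unadjusted p under 0.05), with a median log2 difference of 0.06. DESeq2 called 1, Ube2r2, at 0.20. Of 56 measured RING ligases whose symbols are outside both families 1 rose and 2 fell, 5.36%, with a median of 0.02. Uhrf1, which guides maintenance DNA methylation, rose by 1.22 on the log2 scale (SE 0.34, adjusted p = 0.0465 by edgeR). Its levels were 0.96 ± 0.535 CPM in control and 1.49 ± 0.641 in BrapcKO libraries, which overlapped. These plain means differ by less than the fitted value, which has the title code as a term. Siah2, a ligase of the hypoxia response, fell by 0.44 (SE 0.11, 0.024), from 18.3 ± 1.73 to 13.2 ± 1.16 CPM, and its groups did not overlap. Rffl fell by 0.46 (SE 0.12, 0.0353). Leaving out 1 library at a time lost the call of Uhrf1 and of Rffl in 7 settings each and of Siah2 in 4. The count of these RING ligases called was 0 without control 08, 09 or 23 or BrapcKO 21, 1 without control 22 or BrapcKO 04, and 5 without control 24.

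Levels among members spanned a wide range. Expressed per kilobase of merged exons, the median member stood at 6.56 CPM per kb, 3.71 for TRIM and 8.56 for RNF genes, over a range of 0.147 (Trim7) to 140 (Rnf187). Above 10 CPM per kb there were 46 members and below 1 there were 20. The 5 highest were Rnf187 at 140 ± 19.6, Trim37 at 80.3 ± 9.05, Trim44 at 77.2 ± 4.3, Rnf14 at 76.7 ± 6.22 and Rnf11 at 75.2 ± 10.9 CPM per kb (SD, n = 10). From Trim37 to Rnf11 neighbours in this order differed by less than their spread between libraries. For the 84 members with an average log2 CPM of at least 3, the residual SD between libraries had a median of 0.13 on the log2 scale, and it was largest for Trim59 at 0.48.

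The members sat on 19 chromosomes, 21 of them on chromosome 11 and 14 on chromosome 7. The member nearest to Brap on chromosome 5 was Rnf34, 1.19 Mb away, with a log2 difference of 0.16 (adjusted p = 0.279). Each of the other 6 members on that chromosome was also not called.

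More members differed between the title codes than between the groups. Between B2 and B1, with the group as a term, 25 of 109 members differed, 13 higher and 12 lower in B2. That is 22.9% of members against 25.1% of all genes, of which 13.4% were higher and 11.8% lower. Rnf146, which recognises ADP-ribosylated axin in Wnt signalling, was at 23 and 20.5 CPM in the B1 controls and at 22.4, 20.6, 22.8 and 20.8 CPM in the B1 BrapcKO libraries. In B2 it was at 84.9, 86.6 and 78.6 CPM in control and 86 CPM in BrapcKO 21. The codes did not overlap, and the log2 difference was 1.96 (SE 0.08, adjusted p = 7.24e-10 by edgeR), while between the groups it was 0.01. Rnf5, a ligase of the endoplasmic reticulum, was at 3.19 to 5.52 CPM in B1 and 16 to 19.6 CPM in B2, a difference of 2.21 (SE 0.15). Rnf26 was at 0.472 to 1.56 CPM in B1 and 4.21 to 4.81 CPM in B2, a difference of 2.32 (SE 0.28). Rnf7, the catalytic subunit of cullin-5 ligases, was at 25.7 to 30.1 and 48.1 to 55.5 CPM, a difference of 0.91 (SE 0.08), and Rnf214 differed by 0.47 (SE 0.07). Without control 09 or BrapcKO 21 the number called was 15 and 14. With the title code dropped from the group comparison, the group difference of Rnf146 turned from 0.01 to -0.77, of Rnf5 from 0.19 to -0.79, of Rnf26 from 0.06 to -0.93 and of Rnf7 from 0.12 to -0.25.

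Members whose exons lie opposite another gene were among those higher in B2. On the other strand Rnf146 shares 76.8% of its exon bases, with Echdc1 among its partners, Rnf5 24.7%, Trim34a 23.5%, Rnf214 23.4% and Rnf139 22.3%. Of these 5 members with at least 20% shared, 4 were higher in B2 and 0 lower. Over all genes with at least 20% shared 53.1% of 691 were higher in B2 with a median of 0.46, against 10.6% of the 9889 genes with none shared and a median of -0.04. Partners did not all move with their member. Echdc1, opposite Rnf146, was higher in B2 by 2.07 (SE 0.14) and Bace1, opposite Rnf214, by 0.36 (SE 0.09). Pcsk7, also opposite Rnf214, differed by -0.13 and Tatdn1, opposite Rnf139, by -0.03, and neither was called. Rnf26 shares 17.3% on the other strand and 65.2% in all, and Rnf7 shares none. No source used here names the strand setting of the counting, so reads of these genes and their partners cannot be told apart, and the part of this in the differences was not tested.

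**Figure D4:**
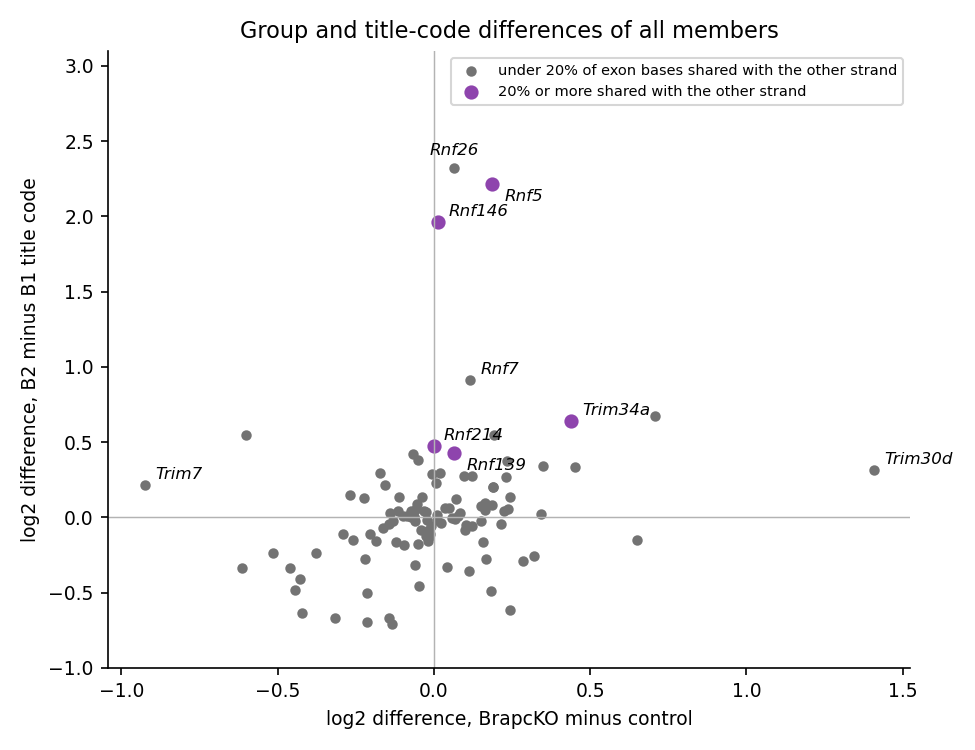
Log2 difference between title codes (vertical axis) against that between groups (horizontal axis) for the 109 members, with members that share at least 20% of exon bases with the other strand in purple. Rnf26, Rnf5 and Rnf146 stand at about 2 on the vertical axis and near 0 on the horizontal one.

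The genotypes within each group allowed 2 narrower contrasts, both fitted beside the title code with 1 spread shared by the 4 genotypes. Between Cre+ and Cre- libraries of flox/flox mice (2 each) 0 of 109 members were called by edgeR or DESeq2. By edgeR 0.736% of all genes were called, 0.336% higher and 0.399% lower. At an unadjusted p under 0.05 there were 11 members (10.1%), against 13.5% of all genes. Rnf122 differed by 0.90 (SE 0.26, adjusted p = 0.143), Trim9 by -0.50 (0.153) and Rnf181 by 0.39 (0.165). Without BrapcKO 05 Trim9 (-0.72) and Rnf165 (-0.85) were called, and without BrapcKO 06 Rnf213 (1.08) was. When flox/ko Cre+ was set against flox/wt Cre- (3 libraries each), 4 members were called by edgeR, all lower. That is 3.67% against 4.84% of all genes, 1.77% higher and 3.08% lower. These libraries also enter the comparison of the groups. The 4 were Trim59 at -1.02 (SE 0.18, adjusted p = 0.0129), Rnf144a at -0.78 (SE 0.14, 0.0133), Rnf144b at -0.64 (SE 0.11, 0.00976) and Trim66 at -0.55 (SE 0.13, 0.0338). DESeq2 called the same 4 and also Trim2, which was higher by 0.36 (adjusted p = 0.041). The edgeR count was 0 without control 08, 1 without control 23 and 2 without BrapcKO 21. In both contrasts the share of all genes was not computed for DESeq2 or for fits that leave out a library.

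The difference between the 2 contrasts was not called for any member, nor for any gene by edgeR, with 5 members (4.59%) at an unadjusted p under 0.05 against 6.12% of all genes. DESeq2 called 1 member, Trim59, and the share of all genes that it called was not computed. Trim59, an endoplasmic reticulum ligase, was at 20.2, 15, 13.9, 15.8 and 8.05 CPM in control and at 8.76, 22.7, 15.4, 11 and 7.86 CPM in BrapcKO libraries. The flox/flox Cre+ libraries 05 and 06 lay among or above the controls, while the flox/ko Cre+ libraries 04, 07 and 21 lay below all controls but 24. The contrast was 0.52 in flox/flox and -1.02 in the other pair, a difference of -1.53 (SE 0.28, adjusted p = 0.312 by edgeR, 0.00182 by DESeq2). Without BrapcKO 06 edgeR called it at -1.79 (0.0383). For Rnf144a the difference of contrasts was -0.45 (adjusted p = 0.831), for Rnf144b -0.28 (0.866) and for Rnf122 -1.18 (0.611), and the 2 contrasts have different partner genotypes as well as Cre.

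**Figure D5:**
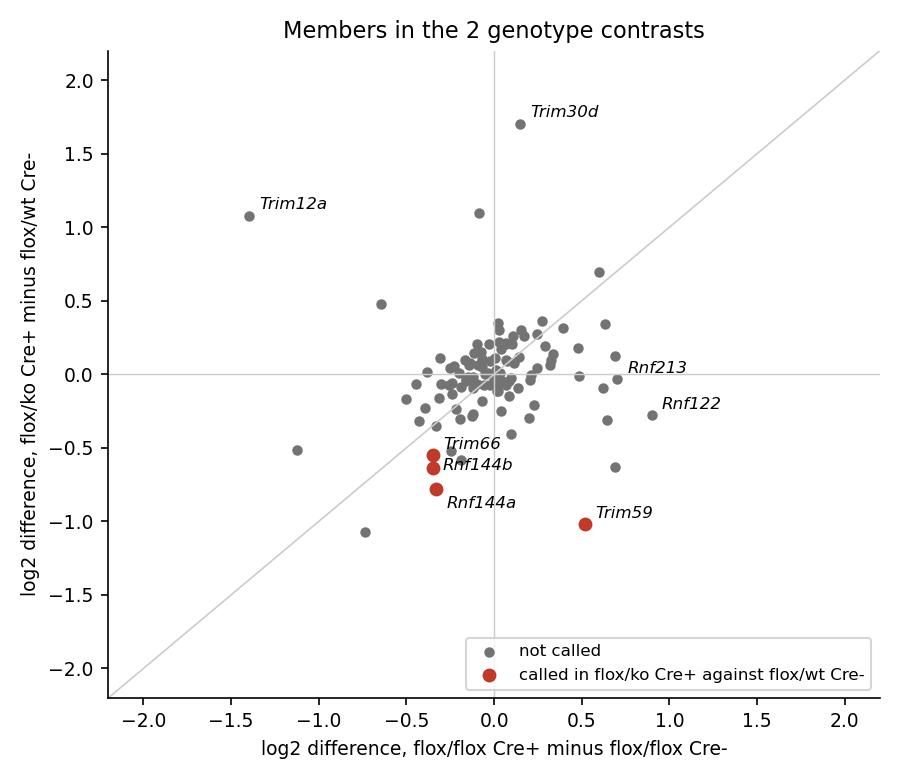
Log2 difference of each member for flox/ko Cre+ minus flox/wt Cre- (vertical axis) against that for Cre+ minus Cre- within flox/flox (horizontal axis), with the diagonal of equal change. The 4 red members were called by edgeR in the first contrast, and Trim59 lies at -1.02 there and 0.52 in the other.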

How the data were processed

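RNA of cerebral cortex was sequenced after ribosomal RNA depletion, per the labels' protocols. The submitters' processing notes name the tools featureCounts, Subread, FastQC, edgeR and DESeq2 and the builds mm10 and GRCm38, without versions or a strand setting. The authors deposited raw counts per gene, 1 column per library. Of 14276 identifiers 14271 matched GENCODE M21 and gave symbols and coordinates.

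Counts were tested with edgeR 4.0.16 (robust quasi-likelihood, TMM, title code and group as terms) in R 4.3.3, adjusted by Benjamini and Hochberg over all genes. The default filter removed 0 genes. CPM are TMM-scaled. SE is the absolute log2 difference over the square root of F. Genotype contrasts used 4 genotype groups plus title code. The Y-linked score is the mean of log2(CPM + 0.1) over 4 genes. Alternatives were DESeq2 1.42.0, limma-voom 3.58.1, other scalings, filters and terms, B1 libraries alone, and leaving out each library. Intervals cover the spread between libraries.

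Members, role lists, motifs and tests were chosen with earlier results of these data known. The naming rule takes called members, those next by p or by size, the highest levels, the top genes for title code and genotype contrasts, and the extremes of each role list. Some of those are given only by the range of their list.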

Additional observations from a re-analysis of the deposited data

Results flagged for a closer look

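Of 106 groups of 5 libraries tested for a single library far from the rest, over the genes named by rule, 13 (12.3%) had one, by the gap to the next library over the range, against Dixon's critical value at 95%. Chance gives about 1 in 20 where genes are not chosen on these values. That rate does not apply here, since 5 of the genes were named for their difference between title codes, Rnf146, Rnf5 and Rnf7 among them. Of the 13, 6 were BrapcKO 21, the single B2 BrapcKO library, which stood high for Rnf146 (86 CPM), Rnf7 (55.5 CPM), Rnf5 (17.7 CPM), Rnf181 (57.1 CPM), Rnf149 (29.2 CPM) and Trim13 (11.8 CPM). In control 24, the library with the highest choroid plexus markers, Rnf187 was high (356 CPM) and Rnf11 (238 CPM) and Rnf138 (13.1 CPM) were low. Trim2 was high in control 08 (638 CPM), where Rnf125 was low (0.56 CPM). Rnf34 was low in BrapcKO 05 (59.5 CPM) and Trim26 was low in control 09 (16.4 CPM).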

How the results depend on the processing

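The 6 calls were also 6 with RLE factors, a CPM minimum of 1 and limma-voom, 5 by library size alone, and 7 with upper-quartile scaling and with DESeq2. Using no filter repeats the main fit, since the default filter removed 0 genes. They were 0 with group alone or with the Y-linked term alone, 1 with code and Y-linked terms, 2 within B1, and 2 to 9 leaving out 1 library. The E1 and E2 count was 0 except 1 with DESeq2. The count of other RING ligases was 5 with DESeq2, 1 with group alone, 0 with either Y-linked setting or B1 alone, and 0 to 5 leaving out 1 library. Leaving out 1 library gave 14 to 26 title-code calls, 0 to 2 in flox/flox, 0 to 4 in flox/ko against flox/wt and 0 to 1 for their difference; a genotype left with 1 library is assumed to vary like the others. DESeq2 gave 1 for the difference, and without the code the flox/ko count was 0. For the title-code and genotype counts under these settings the share of all genes was not computed, so they cannot be set against it. Between the groups the number of all genes called ran from 406 to 1454 leaving out 1 library. Of 1091 alternative values over 52 named genes, 951 kept direction and side of the threshold, 76 lost and 4 gained the call, and 60 reversed. Those 951 include the no-filter values, which could not differ. The cause of the changes was not tested. Group alone gave -0.014 for Rnf187, -0.77 for Rnf146, -0.79 for Rnf5, -0.25 for Rnf7, -0.93 for Rnf26, 0.017 for Rnf25, 0.018 for Trim65, 0.039 for Trim33 and 0.05 for Rnf217. The Y-linked term alone gave -0.065 for Rnf187, -0.015 for Rnf14, -1.18 for Rnf146, -1.18 for Rnf5, -0.47 for Rnf7, -1.15 for Rnf26, -0.105 for Rnf122, -0.006 for Rnf128, 0.136 for Rnf25, 0.033 for Trim33 and 0.086 for Rnf217. Both terms gave -0.011 for Rnf14, 0.065 for Rnf214, -0.076 for Rnf122, -0.042 for Rnf128 and 0.05 for Rnf25. B1 alone gave -0.079 for Rnf14, -0.009 for Rnf146, 0.002 for Rnf220, 0.066 for Trim65 and -0.072 for Rnf138. Library size alone gave 0.026 for Rnf214, 0.018 for Trim65 and 0.008 for Trim33, RLE and DESeq2 gave 0.001 for Rnf214, and limma-voom -0.06 for Rnf26. Leaving out 1 library, reversals occurred within -0.026 to 0.029 for Rnf214, -0.001 to 0.131 for Trim28, -0.109 to 0.027 for Trim33, -0.022 to 0.061 for Rnf146, -0.095 to 0.26 for Rnf26, -0.085 to 0 for Rnf25, -0.038 to 0.095 for Trim26, -0.043 to 0.06 for Trim65, -0.085 to 0.068 for Rnf14 and -0.077 to 0.178 for Rnf138. Between the groups Brap stayed between 0.16 and 0.30 and was not called under these settings; its genotype contrasts were not recomputed. No paired analysis was possible because no number in the titles is shared between the groups. With 5 libraries a group, genes below about 1 CPM have wide intervals.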
